A study of Homo sapiens with 36 samples.

Results

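Gene expression was profiled on Illumina arrays in LNCaP cells, an androgen-responsive human prostate cancer line, that stably carried a short hairpin RNA against GABPA (labelled shGA). They were compared with LNCaP cells that carried a non-targeting hairpin (labelled NT). Samples were chosen by the cell line and vector in their labels, which gave 8 of the 32 samples of the series, 4 shGA and 4 NT, read on 9 of the 36 arrays because 1 shGA sample had a repeat array that was averaged with the first. All cells had spent 48 h in charcoal-stripped serum, which is depleted of steroids, and in each set 2 samples then received 1 nM of the synthetic androgen R1881 (labelled Androgen) and 2 received its ethanol vehicle (labelled Control). LNCaP cells labelled pLVX_EV, which carry an empty vector and no hairpin (EV, 4 samples in the same arms), were read as a second set of control cells, and shGA and NT samples of c42b, a castration-resistant line derived from LNCaP (4 each), were used to compare lines. The sources used here give no hairpin sequence. They call the hairpin cells of a xenograft experiment clones, but do not say of the LNCaP lines on these arrays whether each was a clone or a pool. The labels do not mark more than 1 stable LNCaP line per vector. An effect of the hairpin and a difference between separately derived lines therefore cannot be told apart. The study's methods speak of RNA from biological triplicates, whereas the labels give 2 samples a group and repeat arrays of some, and do not say which came from separate cultures. The p-values therefore reflect the spread between these samples alone, some of which may be technical.

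GABP (GA-binding protein) is a transcription factor of the ETS family, built from GABPA, which binds DNA at sites around a GGAA core, and a beta subunit, GABPB1 or GABPB2, which carries the part that activates transcription. It is known for its sites in the promoters of housekeeping genes, among them genes of the respiratory chain and of the mitochondrial ribosome, and for a part in entry into the cell cycle. In prostate cancer cells androgen controls many of the genes that mark the tissue.

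The letters that an ETS factor of this class prefers, CCGGAAGT, were looked for on both strands from 250 bases before to 50 bases after the start of each gene (RefSeq, GRCh38.p14). A window was matched for 15033 of the 20046 measured genes, and 6.22% of these windows held the letters, against 4.44% of all 27305 windows. They were in 4.19% of the windows of genes called higher in shGA than NT cells (9 of 215) and in 3.55% of those called lower (7 of 197). TGATGCAA, a composite element bound by ATF4 together with C/EBP proteins in the amino acid response, was in 0.679% of the measured windows, 0.923% of all windows, 0.93% of those of genes called higher (2 of 215) and 2.03% of those called lower (4 of 197). These matches are descriptions of the windows and not evidence of binding. Of the 15 genes with the largest increases and the 15 with the largest decreases, 22 had a window and 0 held CCGGAAGT. The windows printed here are those of the partner subunit GABPB1, the 1 GABP gene that rose, and of DDIT3 and CHAC1, which belong to the stress response described further on and fell.
GABPB1: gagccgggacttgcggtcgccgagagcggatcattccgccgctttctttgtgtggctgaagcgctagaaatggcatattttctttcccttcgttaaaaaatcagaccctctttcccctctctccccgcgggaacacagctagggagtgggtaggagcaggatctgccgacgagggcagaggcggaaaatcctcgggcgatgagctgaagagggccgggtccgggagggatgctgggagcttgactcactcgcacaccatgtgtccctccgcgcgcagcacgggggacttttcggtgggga
DDIT3: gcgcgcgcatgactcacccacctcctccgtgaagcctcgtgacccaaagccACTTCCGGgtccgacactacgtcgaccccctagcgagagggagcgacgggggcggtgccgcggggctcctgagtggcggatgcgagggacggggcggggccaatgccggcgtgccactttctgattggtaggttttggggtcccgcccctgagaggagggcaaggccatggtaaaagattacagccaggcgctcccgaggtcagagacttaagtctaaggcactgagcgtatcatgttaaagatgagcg
CHAC1: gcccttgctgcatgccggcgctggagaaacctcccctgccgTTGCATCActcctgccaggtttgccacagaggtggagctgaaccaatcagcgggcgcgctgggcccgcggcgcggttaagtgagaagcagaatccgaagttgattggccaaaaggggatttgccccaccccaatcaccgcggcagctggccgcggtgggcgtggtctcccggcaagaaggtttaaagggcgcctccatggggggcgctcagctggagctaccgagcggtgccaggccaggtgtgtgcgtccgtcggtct
The GABPB1 window lies at chr15:50355149-50355448 on the minus strand and held neither motif. That of DDIT3, at chr12:57520465-57520764 on the minus strand, held CCGGAAGT in reverse (capitals, ACTTCCGG) 199 bases before the start. That of CHAC1, at chr15:40953221-40953520 on the plus strand, held TGATGCAA in reverse (capitals, TTGCATCA) 209 bases before the start. DDIT3 and CHAC1 were picked for printing after their values were seen, as the 2 called decreases of the stress response list that held a motif. The window of TSC2, which rose, held both motifs and is not printed. Over the list as a whole CCGGAAGT was in 1 of 23 windows (4.35%) and TGATGCAA in 2 of 23 (8.7%).

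The target of the hairpin was read first, as a check of the labels. Levels are log2 intensities after quantile normalization, and where 4 values of a cell type follow each other they are the 2 R1881 samples and then the 2 vehicle samples. GABPA, on chromosome 21, read 7.66, 7.71, 7.82 and 7.62 in shGA cells, against 8.11, 7.88, 8.31 and 8.01 in NT cells and 8.05, 7.99, 8.28 and 7.92 in EV cells. Every shGA sample was below every NT and EV sample, but the probe sat close to the background of the array, which was set at 7.78 (the 95th percentile of probes for olfactory receptors, genes seldom expressed outside the nose). The means were 7.70 ± 0.09 in shGA and 8.08 ± 0.18 in NT cells (SD, n = 4 each), and the difference of -0.38 log2 (SE 0.11) missed the threshold (adjusted p = 0.101). Against EV cells the difference was -0.36 (adjusted p = 0.0344). A second and dimmer GABPA probe, at a mean of 6.56, differed by -0.14 from NT (adjusted p = 0.8). With both probes near or below background, the array gives no firm size for the loss of GABPA RNA, and protein was not measured in these data.

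GABPB1, which encodes the activating partner of GABPA, was higher in shGA cells with 3 of its 4 probes. It read 10.31, 9.88, 9.79 and 9.75 in shGA cells, against 9.16, 9.02, 8.66 and 8.79 in NT cells and 8.94, 8.98, 8.44 and 8.33 in EV cells. The shGA samples lay above all NT and EV samples, and within NT and EV cells the R1881 samples were the higher ones. The difference from NT was 1.02 log2 (SE 0.09, 2.03-fold, adjusted p = 1.9e-09), and from EV 1.26 (adjusted p = 2.3e-12). Of the 3 other GABPB1 probes, those at means of 7.88 and 8.27 were higher by 0.50 (adjusted p = 0.013) and 0.47 (0.00214), and 1 below background differed by -0.05. GABPB2, the alternative beta subunit, read 12.37, 13.26, 12.24 and 12.28 in shGA cells, 12.38, 12.60, 12.17 and 12.61 in NT cells, and 12.30, 12.30, 12.75 and 12.50 in EV cells. These overlap throughout, with 1 shGA sample standing high, and the difference was 0.10 log2 (SE 0.13, adjusted p = 0.916).

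**Figure D1:**
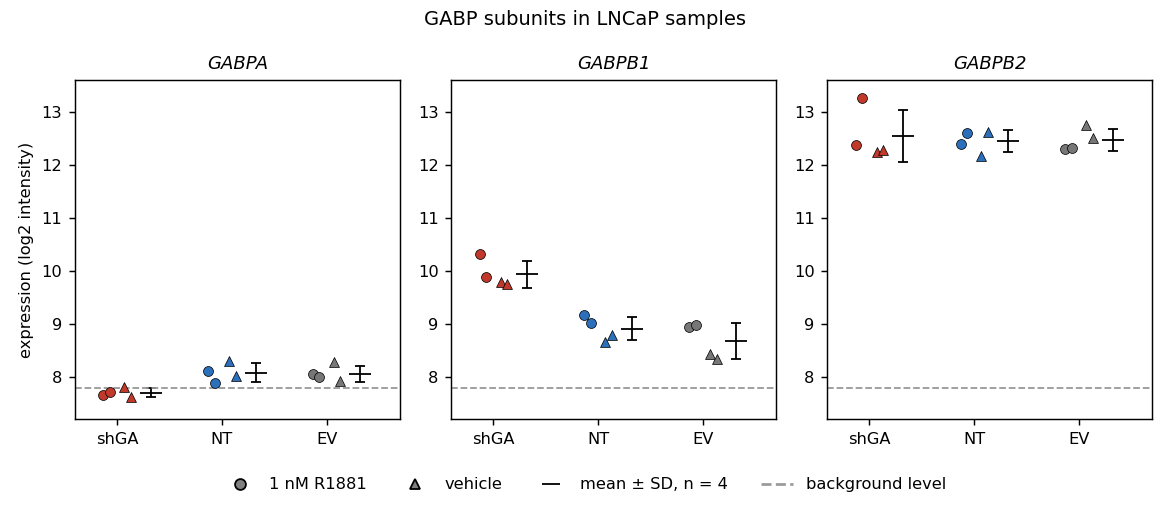
Levels of the 3 GABP subunit genes (log2 intensity) in LNCaP shGA, NT and EV samples. Circles are R1881 samples, triangles vehicle samples, the bars mean ± SD over 4 samples, and the dashed line the background level of 7.78. GABPA lies next to the background in all cells, GABPB1 is separated between shGA and the other cells, and GABPB2 is not.

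Over the whole array 494 genes passed the test between shGA and NT cells, 254 higher (1.27% of 20046) and 240 lower (1.2%). Without adjustment, 2758 genes had a p under 0.05, against 1002 to be met by chance if no gene differed. Most changes were modest. Their median size was 0.43 log2, the smallest was 0.29, and 12 genes, 6 in each direction, changed by more than 1 log2. All 494 had the same sign in the R1881 and the vehicle arm, and 453 had a mean level above background. With each array centred on its median in place of quantile normalization, 365 genes were called, 34% of them higher, against 51.4% of the 494, so the balance of increases and decreases depends on the scaling. The 5 called genes nearest the threshold had sizes of 0.31 to 0.48 log2 and adjusted p of 0.0487 to 0.0498, and the 5 nearest outside it 0.31 to 0.43 and 0.0504 to 0.0519.

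EV cells were read as a second set of controls, which may not match the hairpin cells in vector. The labels put EV in pLVX, while the study's methods name pLVX-Tight-Puro for the knockdown and pSicoR for overexpression. Between shGA and EV cells 1107 genes were higher (5.52%) and 1268 lower (6.33%), many more than between shGA and NT cells. Of the 254 genes higher in shGA than NT cells, 123 (48.4%) were also called higher than EV cells, 108 were not called and 23 were called lower. Of the 240 genes that fell, 163 (67.9%) were also called lower than EV cells and 9 were called higher. Taking the samples themselves, 97 of the 254 (38.2%) had all 4 shGA samples above all NT and EV samples, as 1.27% of all genes did, and 131 of the 240 (54.6%) had them all below, as 1.48% of all genes did. For 65 of the genes that rose and 27 of those that fell the EV mean lay beyond the shGA mean. The comparisons with NT and EV share the shGA samples. The called genes were chosen by their difference from NT, and 199 of the 254 and 201 of the 240 had no overlap with NT. A larger share of separated genes than over all genes therefore follows from that choice.

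**Figure D2:**
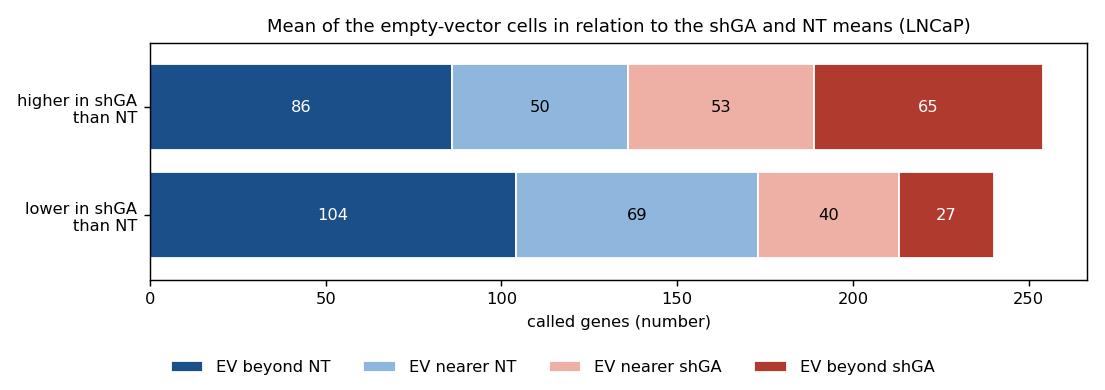
Number of genes called between shGA and NT cells, split by where the EV mean lies. The segments, from left to right, are EV beyond NT on the far side from shGA, EV nearer NT, EV nearer shGA, and EV beyond shGA. Of the genes higher in shGA cells the segments hold 86, 50, 53 and 65 genes, and of those lower 104, 69, 40 and 27.

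The largest increases were in ID1 and ID3, which encode HLH proteins that bind and block basic HLH transcription factors and are well known targets of BMP signalling through SMAD proteins. ID1 read 9.53, 10.13, 10.12 and 9.90 in shGA cells, against 8.03, 7.60, 7.84 and 8.19 in NT cells and 7.42, 7.50, 7.48 and 7.76 in EV cells. NT and EV samples sat around the background level, and every shGA sample stood more than 1 log2 above them. The difference from NT was 2.0 log2 (SE 0.12, adjusted p = 9.28e-13), a size that is uncertain because the NT level is close to background, and a second, dimmer ID1 probe differed by 0.36 (adjusted p = 0.0576). ID3 read 10.30, 10.74, 10.92 and 10.77 in shGA cells, against 8.28, 8.42, 9.20 and 9.23 in NT cells and 7.94, 8.02, 8.35 and 8.55 in EV cells. It was higher in vehicle than R1881 in NT and EV cells and high in both arms of shGA cells (difference from NT 1.90, SE 0.10, adjusted p = 1.15e-13). ID2 rose by 0.59 (adjusted p = 0.000753), with 9.10 to 9.23 in shGA and 8.52 to 8.64 in NT cells. In RNA from a whole culture, more RNA per cell and more cells that express a gene cannot be told apart.

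Of the BMP and SMAD genes, only the ID genes rose against NT cells. Of the 24 measured members of the list 3 rose (the ID genes), 1 fell and the median difference was 0.03 log2, against 0.00 over all genes. Of the 24, 11 had a mean above background, so changes of the others may be missed. Over all genes 1.27% rose and 1.2% fell. The gene that fell was BAMBI, a decoy receptor of the TGF-beta family, with 10.80, 10.62, 11.85 and 11.95 in shGA cells against 11.34, 11.17, 12.36 and 12.41 in NT cells and 10.91, 11.04, 12.21 and 12.03 in EV cells. Its level was lower under R1881 in all 3 cell types, and the difference from NT was -0.52 log2 (SE 0.09, adjusted p = 0.000447), while that from EV was -0.24 and not called (adjusted p = 0.0862). Against EV cells 5 genes of the list rose and 3 fell (5.52% and 6.33% over all genes), with a median of 0.05.

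BRDT and PEG3 were among the other large increases. BRDT, a testis-specific bromodomain protein that reads acetylated histones, was at 9.35, 9.54, 9.18 and 9.10 in shGA cells, against 7.74, 7.84, 7.70 and 7.56 in NT cells and 7.21, 7.36, 7.55 and 7.38 in EV cells. It was thus at background in both control cell types and above it in all shGA samples (1.58 log2, SE 0.10, adjusted p = 4.2e-12), which leaves the size of the difference uncertain. Its 2 other probes were below background and were not called. PEG3, a paternally expressed imprinted zinc finger gene, read 9.62, 10.03, 10.15 and 9.93 in shGA cells, 8.39, 8.59, 9.05 and 9.01 in NT cells, and 7.68, 8.04, 8.17 and 8.18 in EV cells. The 3 cell types did not overlap, and PEG3 rose by 1.18 log2 over NT (SE 0.11, adjusted p = 6.46e-09). Of the 35 measured cancer-testis genes 1 rose and 1 fell, and of the 21 imprinted genes 1 rose, so BRDT and PEG3 were the increases in their lists. Over all genes 1.27% rose and 1.2% fell.

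Further increases among the top 15 were in CD163L1 (0.93 log2), EPHX4 (0.87), an epoxide hydrolase family member, CBLN2 (0.90), a secreted synaptic organizer, and SEMA6A (0.83), a transmembrane semaphorin. All 4 were also called higher than in EV cells, by 0.53, 0.82, 1.08 and 0.75 log2. RPL36A, a ribosomal protein gene, rose by 0.89, but it belongs to a family with many near-identical copies and its probe may read several. For 3 others the EV cells lay with or above the shGA cells. ARL2BP, which binds the GTPase ARL2, averaged 10.62 in shGA, 9.80 in NT and 10.38 in EV cells. PEX19, a chaperone for peroxisomal membrane proteins, averaged 10.73, against 9.95 in NT and 10.93 in EV cells. TMEM59L averaged 9.54, against 8.64 in NT and 10.05 in EV cells, and was called lower than EV (adjusted p = 0.00536).

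Among the decreases, TFF3, a secreted trefoil peptide of mucosal epithelium, read 9.06, 9.0, 8.83 and 9.27 in shGA cells, against 10.45, 10.29, 10.21 and 10.36 in NT cells and 10.79, 10.59, 10.57 and 10.63 in EV cells. All shGA samples lay well below all others (-1.29, SE 0.10, adjusted p = 1.08e-10). Of the 21 measured trefoil and secretory genes 9 had a mean above background. Besides TFF3 1 was called, AZGP1, a secreted glycoprotein, which rose by 0.51 (1.27% of all genes rose and 1.2% fell). Its means of 7.78 in shGA, 7.27 in NT and 6.94 in EV cells lay at or below background, so that size is uncertain. ANTXR1, a receptor for anthrax toxin that also binds collagen, read 7.23, 7.40, 7.55 and 7.69 in shGA cells, below background, against 8.56, 8.46, 8.60 and 8.69 in NT cells and 8.80, 8.78, 8.75 and 8.81 in EV cells. It fell by 1.11 log2 (SE 0.08, adjusted p = 2.47e-11), again of uncertain size. The 3 other ANTXR1 probes, at means of 7.86 to 8.10, differed by -0.05 to -0.22 and were not called. TUSC3, a subunit of the oligosaccharyltransferase that attaches N-glycans, read 9.26, 8.96, 9.30 and 9.24 in shGA cells, against 10.28, 10.19, 10.27 and 10.21 in NT cells and 10.73, 10.81, 10.81 and 10.72 in EV cells. It fell by 1.05 log2 (SE 0.08, adjusted p = 6.87e-10), as the only member called of 12 in its list, where 2.46% of all genes were called.

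PRUNE2 read 9.72, 9.80, 9.73 and 9.63 in shGA cells, against 10.99, 10.83, 10.89 and 11.09 in NT cells and 10.59, 10.50, 10.55 and 10.57 in EV cells. The 3 cell types did not overlap, EV lay between the others, and the difference from NT was -1.23 (SE 0.09, adjusted p = 5.77e-11). OPRK1, the kappa opioid receptor, fell by 0.95, SLITRK3 by 0.78 and SYT4, a synaptotagmin, by 0.85, and each was lower than in EV cells by more than 1 log2. PFKP, a phosphofructokinase of glycolysis, fell by 0.86, with EV cells at the NT level (9.06 in shGA, 9.92 in NT and 9.90 in EV cells). HMGN4 (-0.94) and IFITM2 (-0.91) fell too, but both belong to families of close paralogs, and IFITM3, which is nearly identical to IFITM2 over much of its length, fell by 0.60.

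For VWF and RIPOR2 the comparison with EV cells differed from that with NT cells. VWF, the clotting factor of endothelial cells, read 8.15, 8.20, 8.74 and 8.91 in shGA cells, against 9.56, 9.49, 10.02 and 10.01 in NT cells but 7.48, 7.44, 8.07 and 8.04 in EV cells. It was 1.27 log2 lower than in NT (SE 0.09, adjusted p = 4.23e-11) and 0.74 log2 higher than in EV cells (adjusted p = 4.88e-07), so that the NT line is the one that stands high. Of 13 measured endothelial markers, VWF alone had a mean above background and alone was called, where 2.46% of all genes were called. The summed linear intensity of the list was 1982 to 2141 in shGA, 2422 to 2680 in NT and 1830 to 1970 in EV samples. RIPOR2, an inhibitor of RhoA, averaged 9.21 in shGA, 10.32 in NT and 9.36 in EV cells. It fell by 1.11 against NT (adjusted p = 4.18e-08) and differed by -0.15 from EV (adjusted p = 0.571).

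**Figure D3:**
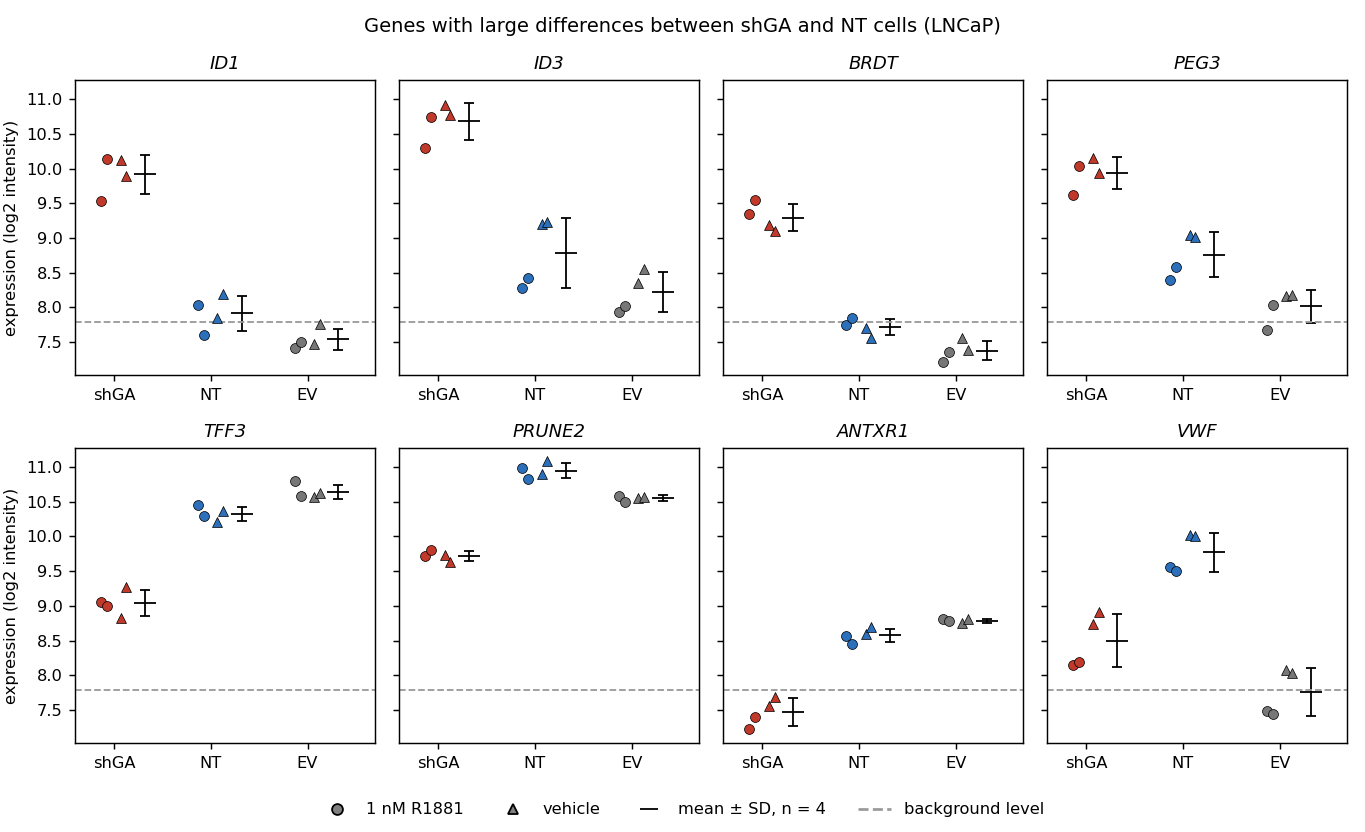
Levels of 8 genes with large differences between shGA and NT cells (log2 intensity, 1 panel a gene on a shared axis). Circles are R1881 samples, triangles vehicle samples, bars mean ± SD over 4 samples, and the dashed line the background level of 7.78. In 7 panels the EV samples lie on the NT side of the shGA samples, and for VWF they lie on the other side.

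Genes of the integrated stress response were mostly lower in shGA cells. In this response, kinases that sense amino acid lack, misfolded protein or haem deficiency slow translation, which raises the transcription factor ATF4, and ATF4 then induces genes for amino acid synthesis and uptake together with a set of stress regulators. Of 29 measured members, 11 fell and 0 rose, against 1.2% and 1.27% of all genes. The median difference of the list was -0.22 log2, and 22 of the 29 were lower. Against EV cells 12 fell and 0 rose (background 6.33% and 5.52%), 8 genes fell against both, and the median was -0.17. The members and the list were picked with earlier results of these data known, so the count describes these samples.

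Enzymes of serine and one-carbon metabolism and of asparagine synthesis were among the 11. PCK2, the mitochondrial phosphoenolpyruvate carboxykinase, read 10.97, 11.11, 11.06 and 11.03 in shGA cells, against 11.75, 11.68, 11.82 and 11.70 in NT cells and 11.52, 11.41, 11.61 and 11.65 in EV cells. It was lower in every shGA sample than in every other sample (-0.70, SE 0.08, adjusted p = 1.51e-06). Other, dimmer PCK2 probes differed by -0.50 (adjusted p = 0.000257) and by -0.13 (adjusted p = 0.757). PHGDH, PSAT1 and SHMT2, which make serine and turn it into glycine, fell by 0.44, 0.47 and 0.38 log2 (adjusted p = 0.00158, 0.00124 and 0.00398). ASNS, asparagine synthetase, read 11.70, 11.78, 11.91 and 12.04 in shGA cells, against 12.57, 12.31, 12.24 and 12.22 in NT cells and 11.95, 12.05, 12.20 and 12.14 in EV cells. It fell by 0.48 against NT (adjusted p = 0.000858), and by 0.57 with a second probe, while the EV samples lay between and overlapped shGA (difference -0.23, adjusted p = 0.0969). SHMT2 in EV cells, at 12.39, matched shGA (12.38) rather than NT (12.77).

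Of the regulators on the list several fell, and ATF4 itself was not called. TRIB3, a pseudokinase that ATF4 induces and that restrains it, read 10.16, 10.29, 10.71 and 10.70 in shGA cells, against 11.25, 11.01, 11.08 and 11.20 in NT cells and 10.80, 10.98, 11.12 and 11.07 in EV cells. It was lowest in the R1881-treated shGA samples (-0.67, SE 0.09, adjusted p = 6.36e-06). STC2, a secreted glycoprotein, fell by 0.61 and CEBPB, a bZIP partner of ATF4, by 0.54, and both were lower than EV cells as well (adjusted p = 2.14e-09 and 2.06e-05). DDIT4, an inhibitor of mTORC1, fell by 0.55 against NT but equalled EV (11.64 in shGA, 12.19 in NT and 11.60 in EV cells). DDIT3, the pro-apoptotic factor CHOP, read 9.28, 9.47, 9.63 and 9.74 in shGA cells, against 9.98, 9.95, 9.80 and 10.01 in NT cells and 9.99, 10.05, 10.78 and 10.77 in EV cells. It fell by 0.41 (adjusted p = 0.0105), and the call depended on single samples. The adjusted p became 0.0837 when replicate 1 of the shGA cells under R1881 was left out, 0.063 without replicate 1 of those under vehicle, and 0.0874 without replicate 2 of the NT cells under vehicle. CHAC1, which degrades glutathione, averaged 6.96 in shGA, 7.35 in NT and 7.28 in EV cells, all below background, and its call (-0.39, adjusted p = 0.0465) was lost when any of 6 of the 8 samples was left out. ATF4 itself read 13.30 in shGA, 13.64 in NT and 13.89 in EV cells, a difference of -0.34 from NT that was not called (adjusted p = 0.0691) and of -0.59 from EV that was (adjusted p = 2.89e-05). The ATF4 difference from NT passed under 4 alternatives to the main processing. With the vehicle arm alone, where fewer samples enter, PCK2 alone of the 11 kept its call. Adjusted p there was 0.526 for ASNS, 0.373 for PSAT1 and 0.323 for PHGDH. SHMT2 and CHAC1 also lost their calls with the R1881 arm alone. The list had a median of -0.29 under R1881 and -0.22 under vehicle.

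Amino acid transporters showed 4 decreases and 0 increases among 20 measured genes (1.2% and 1.27% over all genes), with a median of -0.09 log2. Against EV cells 7 fell and 1 rose (6.33% and 5.52% over all genes), and 4 genes fell against both. SLC7A5, the light chain of the LAT1 transporter for large neutral amino acids, read 7.38, 7.30, 7.81 and 7.75 in shGA cells, against 8.30, 8.10, 8.65 and 8.56 in NT cells and 7.74, 7.66, 8.28 and 8.27 in EV cells. Within each arm the shGA samples were below both kinds of control, and EV cells lay between (-0.84, SE 0.08, adjusted p = 2.29e-08). The shGA mean of 7.56 is below background, so the size of this difference is uncertain. SLC7A2 and SLC7A1, carriers of cationic amino acids, fell by 0.57 and 0.43, and SLC43A1, another carrier of large neutral amino acids, by 0.48. SLC43A1 had shGA and NT means below background and lost its call when any of 6 of the 8 samples was left out. Of 18 aminoacyl-tRNA synthetases 1 fell, WARS1 (-0.46, adjusted p = 0.00102), 14 were lower and the median was -0.11. Among 23 chaperones and other genes of the unfolded protein response of the endoplasmic reticulum 1 fell, the transcription factor XBP1 (-0.41, adjusted p = 0.00413), and the median was -0.08. A second XBP1 probe, nearly as bright, differed by -0.30 and was not called (adjusted p = 0.125).

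**Figure D4:**
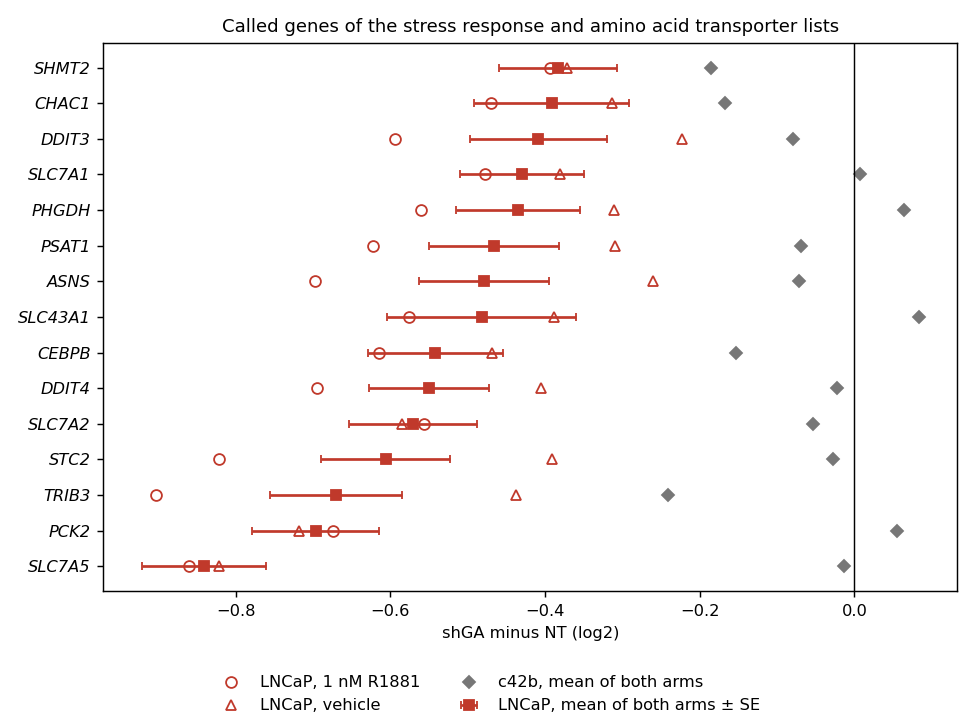
Difference between shGA and NT cells (log2) for the 15 called genes of the stress response and amino acid transporter lists. Squares are LNCaP means over both arms with SE, open circles and triangles LNCaP under R1881 and vehicle, and grey diamonds c42b. The LNCaP values are all below 0, from -0.38 for SHMT2 to -0.84 for SLC7A5 (its shGA mean is below background), while those of c42b run from -0.24 for TRIB3 to 0.08 for SLC43A1.

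Genes of the mTOR pathway and autophagy moved in both directions, with 4 increases and 2 decreases among 27 (1.27% and 1.2% over all genes). Against EV cells 2 were higher and 5 lower (5.52% and 6.33% over all genes). DDIT4L, a relative of DDIT4 that also inhibits mTORC1, read 9.40, 9.33, 9.02 and 9.25 in shGA cells, against 8.04, 8.12, 7.99 and 7.86 in NT cells and 8.29, 8.01, 8.14 and 8.32 in EV cells. It rose in every sample, by 1.25 log2 (SE 0.10, adjusted p = 2.79e-10), where DDIT4 fell. ULK1, the kinase that starts autophagy, rose by 0.61 and CASTOR1, an arginine sensor upstream of mTORC1, by 0.50, but neither was called against EV cells (0.13 and 0.19). TSC2, a brake on mTORC1, rose by 0.34, a call lost without any of 7 of the 8 samples. SESN1, a sestrin that senses leucine and is induced by p53, fell by 0.50 (adjusted p = 0.00399).

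Among 27 p53 targets 3 rose and 1 (SESN1) fell (1.27% and 1.2% over all genes). Against EV cells 6 rose and 3 fell (5.52% and 6.33% over all genes). CDKN1A, which encodes the cyclin-dependent kinase inhibitor p21, read 12.48, 12.51, 12.93 and 12.84 in shGA cells, against 11.70, 11.67, 11.89 and 11.82 in NT cells and 11.45, 11.65, 11.86 and 11.84 in EV cells. All shGA samples were above all others, and the rise was 0.92 log2 (SE 0.09, 1.89-fold, adjusted p = 7.94e-08). SPATA18, a p53 target that acts in mitochondrial quality control, rose by 0.52 at a level below background (7.70 in shGA, 7.17 in NT and 6.98 in EV cells). TNFRSF10B, a death receptor for TRAIL, rose by 0.45 (adjusted p = 0.00393) but was not called when replicate 1 of the NT cells under R1881 was left out (0.0555). The median of the list was 0.09 log2.

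Proliferation genes tended to be higher in shGA than NT cells, by less than against EV cells. Of 55 mitosis genes 6 rose and 0 fell (1.27% and 1.2% over all genes), 49 were higher and the median was 0.21 log2. Against EV cells 48 of 55 rose (background 5.52%) with a median of 0.98. CDK1, the kinase that drives mitosis, read 10.88, 10.81, 11.01 and 10.84 in shGA cells, against 10.25, 10.40, 10.49 and 10.51 in NT cells and 8.82, 8.97, 9.18 and 8.80 in EV cells. The step between shGA and NT was 0.47 (adjusted p = 0.0024), and that between shGA and EV was 1.94 (adjusted p = 2.85e-16). A second, dimmer CDK1 probe differed from NT by 0.36 and was not called (adjusted p = 0.196). PRC1 and HJURP, which act at the spindle midzone and the centromere, rose by 0.54 and 0.53 and BIRC5 (survivin) by 0.41. A second BIRC5 probe, below background, differed by 0.27 and was not called (adjusted p = 0.244). The other 2 of the 6, CENPM and CCNA2, lost their calls without any of 4 and 7 of the 8 samples. With the vehicle arm alone, where fewer samples enter, all 6 lost their calls (adjusted p = 0.0576 for PRC1, 0.141 for CDK1 and 0.276 for HJURP). BIRC5, CENPM and CCNA2 also lost their calls with the R1881 arm alone and with median centring. The summed linear intensity of the list was 40610 to 45870 in shGA, 34150 to 39670 in NT and 17320 to 18410 in EV samples.

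DNA replication genes had the same order, with 3 increases of 52 against NT (median 0.08) and 33 against EV (median 0.59). Over all genes 1.27% rose against NT and 5.52% against EV. MCM6, a subunit of the replicative helicase, read 10.64, 10.50, 10.73 and 10.76 in shGA cells, against 9.98, 9.89, 10.17 and 9.95 in NT cells and 9.77, 9.72, 9.82 and 9.91 in EV cells. It rose by 0.66 (SE 0.08, adjusted p = 8.39e-07), and CDC45, which acts with it, by 0.51. CDC45 lost its call with the R1881 arm alone (adjusted p = 0.134). RPA3, the remaining increase, rose by 0.34 (adjusted p = 0.034). The RPA3 call was lost with either arm alone, with median centring and with repeat arrays left out. DUT, which hydrolyses dUTP and so keeps uracil out of DNA, fell by 0.77 (SE 0.10, adjusted p = 4.12e-06), and its 2 other probes fell by 0.39 and 0.37 (adjusted p = 0.0144 and 0.0169). Genes of entry into the cell cycle that the study had picked out were not called, with SKP2 differing by 0.04, E2F1 by 0.30, CCND1 by -0.02, CDK4 by -0.14, CDKN1B by 0.07 and TYMS by -0.19 log2. SKP2, CDK4 and TYMS were called higher than in EV cells (0.86, 0.38 and 1.70). The study itself reported lower SKP2 and TYMS RNA in knockdown cells. It also reported higher levels of CDK4, cyclin D1 and the CDKN1B product, for which its methods list western blot antibodies. CDKN2A, which encodes p16 and ARF, fell by 0.41 (adjusted p = 0.00648), a call lost without replicate 1 of the R1881-treated shGA cells (0.09).

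Replication-dependent histone genes, a group singled out after their values were seen, showed 12 increases and 1 decrease among 70 measured, with a median of 0.09 log2 (1.27% of all genes rose and 1.2% fell). The 12 increases ran from 0.33 to 0.49. H2AC19 averaged 12.69 in shGA and 12.20 in NT cells, and H2BC5 10.84 and 10.39. Against EV cells 11 rose and 1 fell, where 5.52% and 6.33% of all genes did. These genes are near-identical copies of each other, so that a probe may read several and the number of independent changes is uncertain.

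Androgen target genes were examined because the study asked how GABPA bears on the response to androgen. The R1881 arms behaved as labelled, since FKBP5, a co-chaperone that androgen induces, read 12.66 and 12.46 under R1881 and 9.68 and 9.59 under vehicle in shGA cells, against 11.92 and 11.93 under R1881 and 9.43 and 9.30 under vehicle in NT cells. FKBP5 was higher in shGA cells in both arms, by 0.64 under R1881 and 0.27 under vehicle (mean 0.46, SE 0.08, adjusted p = 0.00143). With the vehicle arm alone its difference was not called (adjusted p = 0.481). FKBP5 was 1 of 2 called among 33 androgen-induced genes, whose median difference was 0.01, where 2.46% of all genes were called. Against EV cells 7 of the 33 were called higher and 9 lower, where 5.52% and 6.33% of all genes were, with a median of -0.01. The other was TSC22D3, a leucine zipper protein better known as a glucocorticoid target, which fell by 0.93 (SE 0.11, adjusted p = 1.09e-06), with 9.64, 9.18, 10.31 and 10.40 in shGA cells, 10.63, 10.30, 11.13 and 11.18 in NT cells and 10.31, 10.38, 11.08 and 11.13 in EV cells. In these cells its level was lower under R1881 than under vehicle, unlike FKBP5. KLK3, which encodes PSA, read 10.40, 10.66, 9.15 and 9.07 in shGA cells, against 10.46, 10.66, 9.20 and 9.12 in NT cells and 10.44, 10.33, 8.61 and 8.41 in EV cells. The difference of -0.04 (SE 0.09) from NT was not called (adjusted p = 0.964), and that of 0.37 from EV was (adjusted p = 0.00646).

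Androgen-repressed genes had 6 decreases and 2 increases among 19 (median -0.07), where 1.2% of all genes fell and 1.27% rose. Against EV cells 6 fell and 0 rose (6.33% and 5.52% over all genes), with a median of -0.20. Of the called genes 2 fell and 0 rose against both NT and EV. ACKR3, an atypical chemokine receptor, read 10.76, 10.43, 12.04 and 11.997 in shGA cells, against 11.60, 11.43, 12.27 and 12.32 in NT cells and 11.05, 10.88, 12.19 and 12.004 in EV cells. It fell by 0.60 against NT (adjusted p = 8.68e-05), and the difference of -0.22 from EV was not called (adjusted p = 0.151). CAMK2N1, an inhibitor of CaM kinase II, stood at 13.69, 13.74, 13.72 and 13.78 in shGA cells, at 12.58, 12.70, 13.27 and 13.41 in NT cells, and at 14.16, 14.18, 14.53 and 14.32 in EV cells. The shGA samples were alike in both arms and lay between NT and EV, so that CAMK2N1 rose against NT (0.75, adjusted p = 3.95e-07) and fell against EV (-0.56, adjusted p = 9.62e-06). The choline transporter SLC44A1 fell by 0.49 and MYC by 0.38, with EV cells again closer to shGA than NT (SLC44A1 11.71 in shGA, 12.20 in NT and 11.76 in EV cells, MYC 11.40, 11.78 and 11.28). MYC was not called when replicate 1 of the NT cells under R1881 was left out (0.0504), and a second, dimmer MYC probe differed by -0.27 (adjusted p = 0.459). Of the other 3, BCHE (-0.38) and TMEFF2 (-0.34) fell and DDC (0.33) rose, and these lost their calls without any of 6, 4 and 4 of the 8 samples.

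Genes that mark the prostate epithelium were present, with 19 of 22 above background, and 1 of them fell. ACP3, prostatic acid phosphatase, read 11.95, 11.64, 11.84 and 11.62 in shGA cells, against 12.46, 12.32, 12.62 and 12.64 in NT cells and 13.55, 13.42, 13.44 and 13.46 in EV cells. The 3 cell types were fully separated (-0.75 against NT, adjusted p = 8.7e-06, and -1.70 against EV, adjusted p = 3.08e-14). Of 11 leukocyte and 7 basal epithelial markers 0 were called. Of 18 neuroendocrine markers 2 rose, ENO2 and DDC, where 1.27% of all genes rose. ENO2, neuron-specific enolase, averaged 9.26 in shGA, 8.50 in NT and 10.28 in EV cells, so it was higher than NT (0.75) and lower than EV (-1.02), both called. Interferon-stimulated genes had 2 increases and 2 decreases among 36 (1.27% and 1.2% over all genes), with ISG15, a ubiquitin-like protein, up by 0.47 (adjusted p = 0.00082). Against EV cells 2 of the list rose and 2 fell (5.52% and 6.33% over all genes).

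Against NT cells, genes of the processes that GABP is best known for were called about as seldom as all genes, of which 1.27% rose and 1.2% fell. More were called against EV cells, as was so for all genes (5.52% and 6.33%). Of 17 measured genes from the literature on GABP targets 0 were called against NT, with a median of -0.03, and 3 rose and 1 fell against EV. Among 73 respiratory chain subunits 1 rose, UQCR10 of complex III (0.45, adjusted p = 0.0172, lost without any of 6 of the 8 samples), and the median was 0.06. Other UQCR10 probes differed by 0.21 and 0.03 and were not called (adjusted p = 0.399 and 0.969). In 12 of the 73 all shGA samples lay above all NT samples and in 0 all below. Over all 20046 genes the counts were 725 and 709, a smaller share above and a larger share below. Against EV cells 8 of the 73 rose and 2 fell (median 0.08). Among 74 mitochondrial ribosomal proteins 1 rose against NT, MRPL33, with a median of -0.01, while 21 rose and 0 fell against EV (median 0.17), where 5.52% of all genes rose and 6.33% fell. MRPL33 averaged 13.01 in shGA, 12.53 in NT and 12.98 in EV cells, so the NT cells were the ones that differed. A second MRPL33 probe differed from NT by 0.27 and was not called (adjusted p = 0.267). CCGGAAGT was more common in the windows of these lists, at 14.8% (9 of 61) for the respiratory chain and 15.2% (10 of 66) for the mitochondrial ribosome, than in the 6.22% of measured windows. Among all measured windows, genes with the letters had a median difference of -0.02 log2 and those without 0.01. None of 26 other measured ETS factors was called, with a median of 0.06.

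The difference between shGA and NT cells was next compared between the arms. With limma 0 genes were called for a difference between R1881 and vehicle, 1262 had an unadjusted p under 0.05, and the smallest adjusted p was 0.111. That was for TIPARP, a poly-ADP-ribose polymerase, with 11.02 and 10.72 under R1881 in shGA cells, against 9.83 and 9.87 in NT and 10.44 and 10.38 in EV cells. Under vehicle it read 8.37 and 8.35 in shGA, 8.44 and 8.21 in NT and 8.74 and 8.61 in EV cells. The difference from NT was 1.02 log2 under R1881 and 0.03 under vehicle. Next by unadjusted p were CAMK2N1 (1.08 under R1881 and 0.41 under vehicle) and ACKR3 (-0.92 and -0.28). The count of 0 depended on which samples entered. Leaving a sample out leaves 1 sample in its group, so it cannot be told which of the 2 replicates stands apart. The SE of an arm difference, with a median of 0.19 log2, was larger than that of the mean over arms (0.0969).

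In c42b cells a partly different list was called. There 344 genes were higher in shGA than NT cells (1.72%) and 307 lower (1.53%). Of these, 57 had also risen in LNCaP (22.4% of the LNCaP and 16.6% of the c42b list) and 54 had also fallen (22.5% and 17.6%), while 27 of the 494 LNCaP genes were called in the opposite direction. The difference between the lines was called for 408 genes (2.04%), 154 of them among the 494. Of these 154, 120 had the opposite sign in c42b, 29 the same sign with a larger size in LNCaP, and 5 the same sign with a larger size in c42b.

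Changes present in both lines included GABPB1 (1.02 log2 in LNCaP and 0.95 in c42b), CDKN1A (0.92 and 0.76), CD163L1 (0.93 and 0.67), PFKP (-0.86 and -0.83), DUT (-0.77 and -0.85), ANTXR1 (-1.11 and -1.35) and TUSC3 (-1.05 and -1.78), each called in both. GABPA was lower by 0.38 in LNCaP, not called, and by 0.46 in c42b (adjusted p = 0.0215). The ID genes behaved differently in the 2 lines. ID1 rose by 2.0 in LNCaP and fell by 0.47 in c42b (adjusted p = 0.0445), where NT cells already averaged 10.34 and shGA cells 9.87, and the lines differed by 2.48 (adjusted p = 1.21e-10). ID3 rose by 1.90 in LNCaP and differed by -0.21 in c42b, uncalled there, and the lines differed by 2.11 (adjusted p = 1.24e-10). BRDT, PEG3, TFF3 and VWF likewise differed between the lines, with 0.03, 0.03, 0.25 and 0.03 in c42b.

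The stress response and proliferation lists also differed by line. The stress response list had a median of -0.03 in c42b, with 1 increase and 0 decreases, and the line difference was called for 5 of its 29 genes. Endoplasmic reticulum chaperones and their relatives had 11 increases in c42b, with a median of 0.34, against 1 decrease in LNCaP, and the line difference was called for 10 of 23. Of 55 mitosis genes 17 fell in c42b (median -0.30) where 6 rose in LNCaP, and the line difference was called for 25. HJURP rose by 0.53 in LNCaP and fell by 0.51 in c42b (adjusted p = 0.0025), and CCNA2 rose by 0.37 in LNCaP and fell by 0.49 in c42b. Opposite directions were also called for REPS2, an endocytic adaptor (-0.57 in LNCaP and 1.0 in c42b), and VCX2, a cancer-testis gene with close copies on the X chromosome (-0.52 and 1.13). For the comparison of lines, too, the labels do not mark more than 1 stable line per hairpin and cell type.

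**Figure D5:**
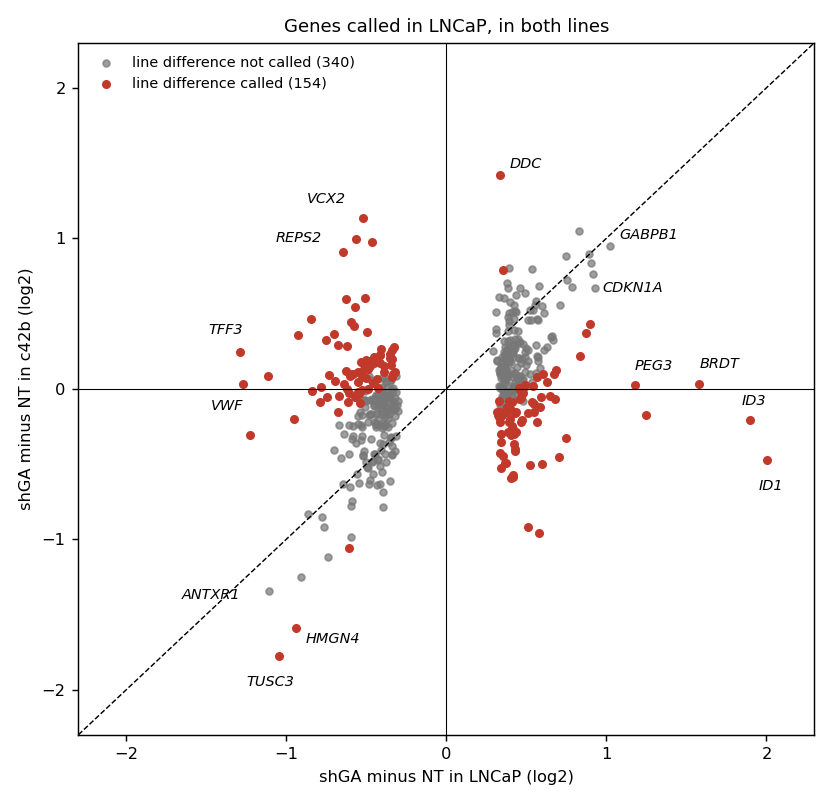
Difference between shGA and NT cells (log2) in LNCaP (x axis) and in c42b (y axis) for the 494 genes called in LNCaP. Red points are the 154 genes with a called difference between the lines, and grey points the others. The dashed line marks equal differences. GABPB1, CDKN1A and ANTXR1 lie near it, and ID1, ID3, BRDT and TFF3 lie near 0 or on the other side of 0 in c42b.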

How the data were processed

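RNA of the 32 samples was hybridised to Illumina HumanHT-12 version 4 arrays. The authors deposited intensity values, which are linear means over the beads of a probe once beadarray (BASH and HULK) had cleaned spatial artefacts, with 94 values missing and array medians of 178.3 to 225 (183.3 to 209.1 for the LNCaP shGA, NT and EV arrays). They also deposited log2 values that they had quantile normalized, which were used as an alternative. Here log2 was taken of the intensities, all 36 arrays were quantile normalized together, and the 4 repeat arrays were averaged with the array they repeat. These values differed from the deposited log2 table by a median of 0.000159 and at most 0.152. The repeat array of the R1881-treated shGA sample differed from its first array by an SD of 0.229 log2, against 0.208 to 0.224 between replicates of LNCaP groups.

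Of 47231 probes, 30113 named 1 gene, 8 named several and 17110 none. Symbols were updated through Entrez identifiers to RefSeq (GRCh38.p14). The brightest probe by mean stood for a gene, giving 20046 genes, 49.6% of them above background. A mean per group was fitted over 16 groups of 2 samples with limma 3.58.1 in R 4.3.3, and shGA was compared with NT averaged over the arms, 4 samples a side. P-values were adjusted by Benjamini-Hochberg over every probe and over the 6 main comparisons of the series together (which include shGA against NT in both lines). It ran within the comparison for EV, arm and line. Genes with an adjusted p under 0.05 were called. The number of arrays limits the precision, and the median SE was 0.0969 log2. The fit was tested on simulated data with 200 changed genes a size.

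Members and the 47 gene lists were chosen with earlier results of these data known. The genes named were the 15 highest and 15 lowest called genes whose arms had the same sign with no overlap of shGA and NT in either arm, up to 5 called genes of each list, a set of genes that the study followed up, the 5 smallest p-values for arm and for line, the 5 genes nearest the threshold on each side, and up to 6 genes called in opposite directions against NT and EV. Others were chosen after their values were seen. TRMT12 was not analysed here. Alternatives covered a replicate block, median centring, the deposited log2 table, normexp background correction, brighter probes, the 8 samples alone, other adjustments, any probe, repeat arrays left out, each arm alone, and each sample left out in turn.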

Additional observations from a re-analysis of the deposited data

Results flagged for a closer look

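The difference between shGA and NT cells was not the same in LNCaP and c42b for 50 of the genes named, by a test of the line difference itself (adjusted p under 0.05). Values are the shGA minus NT difference in LNCaP less that in c42b, on the log2 scale. Groups of 2 samples were too small to look for a sample that stands apart.

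Called in both lines with opposite signs were ID1 (2.48), VCX2 (-1.65), REPS2 (-1.56), SYT4 (-1.31), ACKR3 (-1.05), HJURP (1.03), CCNA2 (0.86) and TSC2 (0.70). Called in both lines in the same direction, but with different sizes, were DDC (-1.09), TUSC3 (0.73), HMGN4 (0.65), EPHX4 (0.50), CBLN2 (0.47) and TMSB4X (-0.43). Of these TUSC3 and HMGN4 fell further in c42b, DDC and TMSB4X rose further there, and CBLN2 and EPHX4 rose further in LNCaP. TYMS (0.92) was not called in LNCaP and fell in c42b.

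Called in LNCaP and not in c42b, with the LNCaP difference the higher one, were ID3 (2.11), BRDT (1.55), DDIT4L (1.42), PEG3 (1.15), PRC1 (0.70), CDK1 (0.68), CDKN3 (0.67), CDC45 (0.67), CENPM (0.66), ID2 (0.65), SEMA6A (0.62), RRM2 (0.59), PLA2G2A (0.56), CDK2 (0.50) and BIRC5 (0.50). With the LNCaP difference the lower one, they were TFF3 (-1.54), VWF (-1.30), TSC22D3 (-1.28), RIPOR2 (-1.20), PRUNE2 (-0.92), SLC7A5 (-0.83), SLITRK3 (-0.79), PCK2 (-0.75), OPRK1 (-0.75), ADGRV1 (-0.70), SESN1 (-0.69), ACP3 (-0.69), XBP1 (-0.68), BAMBI (-0.65), STC2 (-0.58), DDIT4 (-0.53), SLC7A2 (-0.52), PHGDH (-0.50), SLC44A1 (-0.49) and SLC7A1 (-0.44). In all, 30 of the genes had opposite signs in the 2 lines. HMGN4, VCX2 and TMSB4X have near-identical copies, and the probe may not tell these apart.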

How the results depend on the processing

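Of the 106 genes with values in the text, 94 were called between shGA and NT cells, and 45 of these kept call and direction under all 20 alternatives. None of the 94 changed sign. The call was lost by 22 when a sample was left out and by 49 under another alternative, mostly an arm alone. GABPA passed with the replicate block (adjusted p = 0.0357) and with brighter probes only (0.0291). ATF4, the other uncalled gene that passed anywhere, did so under 4 alternatives. The 494 calls became 460 with the replicate block (457 the same genes), 365 with median centring (124 higher, 241 lower), 876 with brighter probes only, 278 with the 8 shGA and NT samples alone, 234 with the R1881 arm and 233 with the vehicle arm alone, where fewer samples enter. They were 346 to 407 with a sample left out. Replicate numbers were not taken to pair samples, since the labels do not say so and same-numbered deviations correlated at -0.124 to 0.166. With the block the 2375 calls against EV became 2345 (2303 the same genes) and the 408 line differences 378 (369 the same genes), with 0 arm differences. Leaving out samples gave totals of 1890 to 2078, 281 to 348 and 0 to 91, not all of them the same genes. The 91 came without replicate 1 of the R1881-treated shGA cells. With brighter probes only there were 818 line and 3 arm differences. Except for fewer samples, the cause was not tested.

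Uncalled genes near 0 changed sign. SKP2 was -0.0201 with median centring, -0.17 by another probe and -0.00276 in the vehicle arm. CCND1 was 0.00875 without repeat arrays and 0.0387 in the vehicle arm, GABPB2 -0.14 by another probe and -0.13 in the vehicle arm, UHMK1 0.21 in the R1881 arm, and PLAU -0.0424 in the vehicle arm. With a sample left out they ran from -0.101 to 0.0275 for KLK3, -0.0489 to 0.0987 for PLAU, -0.12 to 0.32 for GABPB2, -0.0751 to 0.0341 for UHMK1 and -0.0641 to 0.0251 for CCND1.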
